A study of Mus musculus with 6 samples.

Results

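The genes of the histone lysine methyltransferases, demethylases, deacetylases and acetyltransferases were compared between control cells and cells treated with aluminum maltolate. Members were the symbols of the expression table that begin with Kmt, Kdm, Setd, Hdac or Kat followed by a digit, which gave 50 of the 21878 symbols listed. By name they fall into 14 methyltransferases, 16 demethylases of the JmjC type, the 2 flavin-dependent demethylases of the LSD1 group, 11 deacetylases and 7 acetyltransferases. The cells were HT22, an immortalized mouse hippocampal neuronal line, and the study asked how aluminum alters RNA methylation and senescence in them. RNA from 3 control cultures and 3 cultures given 120 µM aluminum maltolate (the Al group) was sequenced as the input of an RNA methylation immunoprecipitation experiment, and the study's methods give 24 h as the treatment time. The series calls the 3 libraries of each group biological replicates of this 1 line. The labels name the groups only by the letters C and M, and M was read as the Al group from the study's own comparison of the same libraries. The methods describe both medium alone and maltol without aluminum as controls and do not say which of them was sequenced.

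Histone methyltransferases and acetyltransferases add methyl or acetyl groups to lysines of the histone tails, and demethylases and deacetylases take them off. Acetylation loosens chromatin and accompanies active promoters and enhancers, whereas the effect of a methyl group depends on the lysine that carries it. JmjC demethylases need iron and 2-oxoglutarate, the LSD1 group uses flavin, and deacetylases of classes I, II and IV hold a catalytic zinc. In neurons, deacetylases of class IIa shuttle between nucleus and cytoplasm and repress MEF2-dependent genes, and several of the methyltransferases and demethylases are known as disease genes of brain development.

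The libraries held 38059492, 43422481 and 44556768 reads in control replicates 1 to 3 and 26670978, 21857904 and 21125631 reads in Al replicates 1 to 3, as recovered from the table, so depth differed with the groups and its part in the results cannot be told apart from the treatment. Values are given as scaled FPKM (FPKM, a read number corrected for transcript length and sequencing depth, after division by size factors between 0.799 and 1.204 that were taken as medians of ratios). The marker levels that follow are FPKM as deposited instead. Division by the size factors lowers the control values and raises the Al values. Ranges and overlaps of the markers can therefore differ on the scaled FPKM scale, which was not examined. Of the 10 neuronal markers checked, 1 (Tubb3) reached a mean of 1, and Nefm and Snap25 were at 0 in all 6 libraries. The summed neuronal level was 5.40 to 5.79 in control and 2.91 to 4.28 in Al libraries. In FPKM as deposited, the summed level of 4 fibroblast markers, led by Col1a1 and Col1a2, was 2002 to 3177 in control and 2467 to 3447 in Al libraries. Of the same list Dcn measured 13.4, 11.7 and 3.77 in control and 2.28, 1.24 and 2.29 in Al libraries, and Lum 1.48, 1.09 and 0.162 in control and 0.0723, 0 and 0.0456 in Al libraries, both without overlap. The 4 astrocyte markers summed to 13.9 to 23.0 in control and 1.51 to 2.61 in Al libraries, nearly all from Slc1a3, with Aqp4 at 0 throughout. The part of these differences in the results was not tested, and a smaller share of cells expressing a gene cannot be told apart from less RNA per cell. Al replicate 3 stood nearest to the control level among the Al libraries in 13 of the 16 members called lower, and it was farthest from control in 6 of the 9 called higher.

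Of the 48 members tested, 9 were called higher and 16 lower in the Al group, and 23 were not called. A call needed an unadjusted P under 0.05 in limma and an absolute log2 fold change over 0.58, and each of the 25 called members also had an adjusted P under 0.05 over all 12889 genes tested. Much of the transcriptome differed between the groups, with 26.2% of all tested genes called higher and 24.4% called lower, so the share of members called (52.1% of 48) was near that of all genes (50.6%). The median log2 fold change was −0.27 over the members and 0.03 over all tested genes. Control and Al libraries did not overlap in 39 members (81.2%), against 68.1% of all genes. These counts depend on the scaling. With FPKM as deposited, the median of all genes shifted by −0.46 and 1 member was higher and 27 were lower, beside 14.0% and 42.0% of all genes. Of the 23 members not called, 13 had an adjusted P under 0.05 with a smaller fold change, and 9 overlapped between the groups. Kdm4d, with at most 9 reads in a library, and the Y-linked Kdm5d, at 0 in all libraries, were too low to test.

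**Figure D1:**
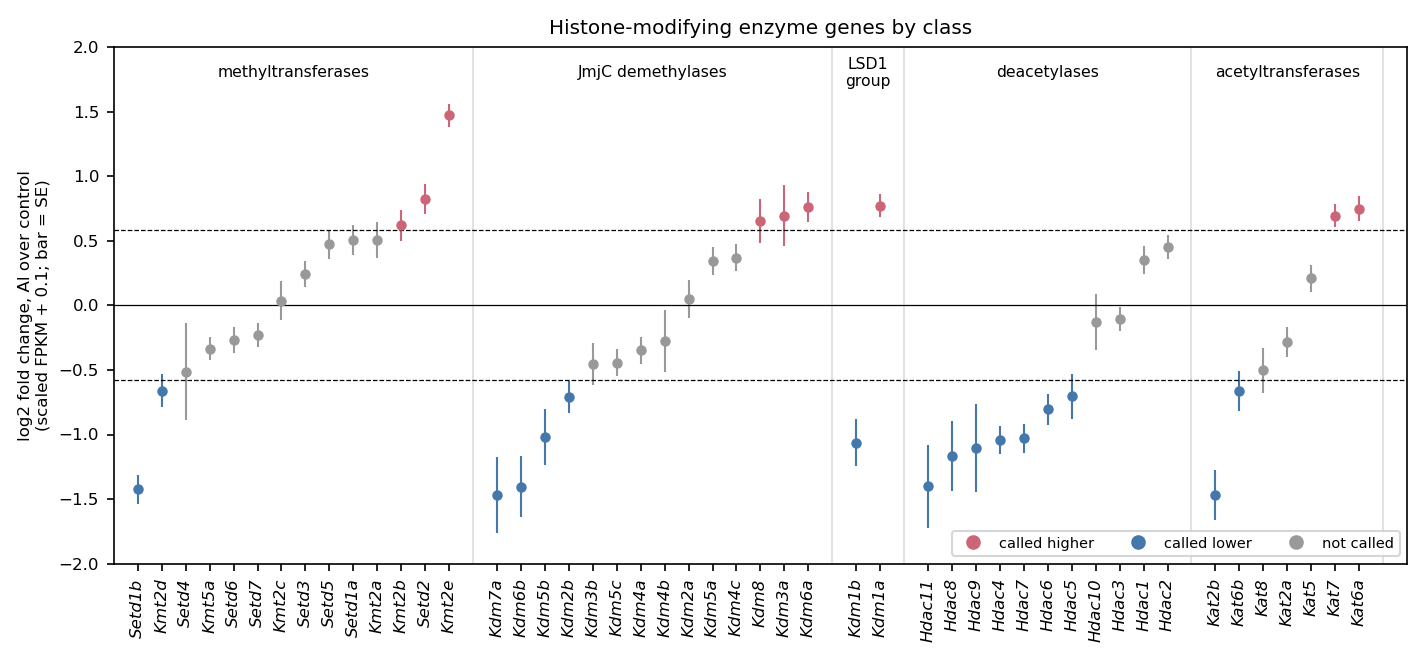
Log2 fold change (Al over control) on the scaled FPKM scale for the 48 tested members, grouped by class, with bars for the standard error and dashed lines at the fold threshold of 0.58. No deacetylase lies above the upper line and 7 of 11 lie below the lower line, while the other classes have members on both sides. With FPKM as deposited, where the median of all genes shifts by −0.46, the points other than Kmt2e that lie above the upper line fall under it.

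The deacetylases had 7 of 11 tested genes lower (63.6%, against 24.4% of all genes) and none higher in limma or with voom on the recovered reads, while Hdac1 and Hdac2 were above control at an unadjusted limma P under 0.05 without reaching the fold threshold. Their median log2 fold change was −0.81, and with FPKM as deposited 9 were lower and none higher, beside 42.0% and 14.0% of all genes. The genes that fell were all 4 of class IIa (Hdac4, Hdac5, Hdac7 and Hdac9), Hdac6 of class IIb, Hdac11, the single member of class IV, and Hdac8 of class I. With the trend of fold change with length and GC content removed, Hdac5 and Hdac9 were not called, which left 2 of 4 in class IIa and 5 of 11 deacetylases lower. The summed level of class IIa went from 76.1 ± 3.45 scaled FPKM in control to 41.2 ± 6.04 in Al libraries (SD, n = 3), and the groups did not overlap.

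Hdac7, known from vessel and thymus development, measured 36.9, 31.4 and 30.1 scaled FPKM in the control and 16.7, 14.6 and 16.6 in the Al libraries. Every Al library lay below every control library, and the level fell by 1.03 ± 0.11 (SE) on the log2 scale (limma, adjusted P = 9.22e-05). Hdac4, a repressor of MEF2 in muscle, cartilage and neurons, had 12.3, 11.8 and 12.1 scaled FPKM in control and 5.61, 5.50 and 6.36 in Al libraries. It fell by 1.04 ± 0.11 (adjusted P = 7.16e-05), close to Hdac7. Hdac5, which leaves the nucleus on neuronal activity, had 29.4, 29.7 and 30.2 in control and 15.1, 16.2 and 24.8 in Al libraries. Al replicate 3 was well above the other Al libraries but still below the controls, and Hdac5 fell by 0.70 ± 0.17 (adjusted P = 0.00703), by 0.93 without Al replicate 3, and by 0.57 without Al replicate 1, which is under the fold threshold. Removal of the length and GC trend left it at −0.43, not called. Hdac9 was low, at 1.52, 1.38 and 1.50 scaled FPKM in control and 1.14, 0.568 and 0.368 in Al libraries. Here Al replicate 1 was nearest to the controls, and the change was −1.10 ± 0.34 (adjusted P = 0.02). It was not called with the length and GC trend removed (−0.82) or with a pseudocount of 1 (−0.57).

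Outside class IIa, Hdac6 is a mostly cytoplasmic enzyme that deacetylates tubulin. It had 11.7, 11.9 and 12.1 scaled FPKM in control and 5.88, 6.94 and 7.58 in Al libraries, with no overlap, and fell by 0.81 ± 0.12 on the log2 scale (adjusted P = 0.000504). Hdac11, known for removing long fatty acyl groups as well as acetyl groups, had 2.73, 3.27 and 2.31 in control and 0.593, 0.937 and 1.64 in Al libraries. Its Al libraries rested on 35, 46 and 89 reads, and it fell by 1.40 ± 0.32 (adjusted P = 0.00491). The X-linked Hdac8, which deacetylates cohesin, had 1.15, 1.29 and 1.28 in control and 0.353, 0.466 and 0.726 in Al libraries. All 3 Al libraries lay below the controls, at 82, 90 and 155 reads, and Hdac8 fell by 1.17 ± 0.27 (adjusted P = 0.00499), a call lost with a pseudocount of 1 (−0.57).

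The 3 abundant class I enzymes, the catalytic subunits of the Sin3, NuRD, CoREST and NCoR complexes, did not reach the fold threshold. Hdac1 measured 45.8 ± 1.72 and 58.6 ± 6.47 scaled FPKM in control and Al libraries (SD, n = 3), with a log2 fold change of 0.35 ± 0.11. For Hdac2 the levels were 36.7 ± 1.06 and 50.3 ± 3.59, a log2 fold change of 0.45 ± 0.09 with no overlap between the groups, and with FPKM as deposited both genes were slightly below control (−0.14 and −0.04). Hdac3 (−0.11 ± 0.09) and Hdac10 (−0.13 ± 0.21) overlapped between the groups. The summed class I level was 114 ± 3.0 scaled FPKM in control and 138 ± 10.9 in Al libraries, but 135 ± 4.08 and 116 ± 0.981 in FPKM as deposited, so its direction depends on the scaling, and the sums were not tested. Inside each library, where a single scaling factor drops out, the class I sum was 1.39, 1.55 and 1.58 times the class IIa sum in control and 3.79, 3.84 and 2.61 times in Al libraries, with no overlap.

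RefSeq lists a promoter window on GRCm38.p6 for 38 of the 50 members. Shown here are the 120 bases before the outermost listed start of 3 class IIa genes that fell (Hdac5, Hdac7 and Hdac9), with Kdm8 and Kat7, which were called higher on the scaled FPKM scale, for comparison. Each stretch lies outside the bounds of its gene in RefSeq and overlaps no exon of the GENCODE vM21 annotation. The letters run 5′ to 3′ on the strand of the gene, and capitals mark the GC box (GGGCGG or its reverse complement CCGCCC, the letters bound by Sp1-type factors) on either strand.
Hdac5 (chr11:102230173-102230292, minus strand): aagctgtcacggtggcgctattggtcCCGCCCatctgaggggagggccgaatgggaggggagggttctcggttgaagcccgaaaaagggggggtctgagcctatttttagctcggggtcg
Hdac7 (chr15:97844503-97844622, minus strand): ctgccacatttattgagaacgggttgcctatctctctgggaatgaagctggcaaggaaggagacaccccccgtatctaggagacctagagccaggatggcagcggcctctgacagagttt
Hdac9 (chr12:34917096-34917215, minus strand): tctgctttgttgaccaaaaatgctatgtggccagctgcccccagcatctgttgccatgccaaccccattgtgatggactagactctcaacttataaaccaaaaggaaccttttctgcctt
Kdm8 (chr7:125444500-125444619, plus strand): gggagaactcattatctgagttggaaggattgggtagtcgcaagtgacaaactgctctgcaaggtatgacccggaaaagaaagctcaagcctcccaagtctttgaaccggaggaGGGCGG
Kat7 (chr11:95310247-95310366, minus strand): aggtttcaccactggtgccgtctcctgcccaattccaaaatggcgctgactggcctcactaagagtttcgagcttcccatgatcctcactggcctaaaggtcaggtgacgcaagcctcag
The stretches of Hdac5 and Kdm8 hold 1 GC box each and those of Hdac7, Hdac9 and Kat7 hold none. Over the whole window from 250 bases before to 50 after the start, 60.0% of the 55 windows of members hold at least 1 GC box, against 35.7% of all 32851 windows. The share was 60.9% of 23 windows of members called lower and 62.5% of 8 windows of members called higher. It was 59.1% of 22 windows of members not called. A gene can have several windows, so windows are not separate units. By gene, 11 of 14 members called lower, 4 of 6 called higher and 9 of 16 not called held a GC box. Over all members this was 25 of 38 genes, and over all RefSeq promoters 10324 of 27025 genes. Whether these letters differ with the direction of a member was not tested. The core of the hypoxia response element (ACGTG or CACGT) was in 18.2% of the members' windows and 19.6% of all windows.

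**Figure D2:**
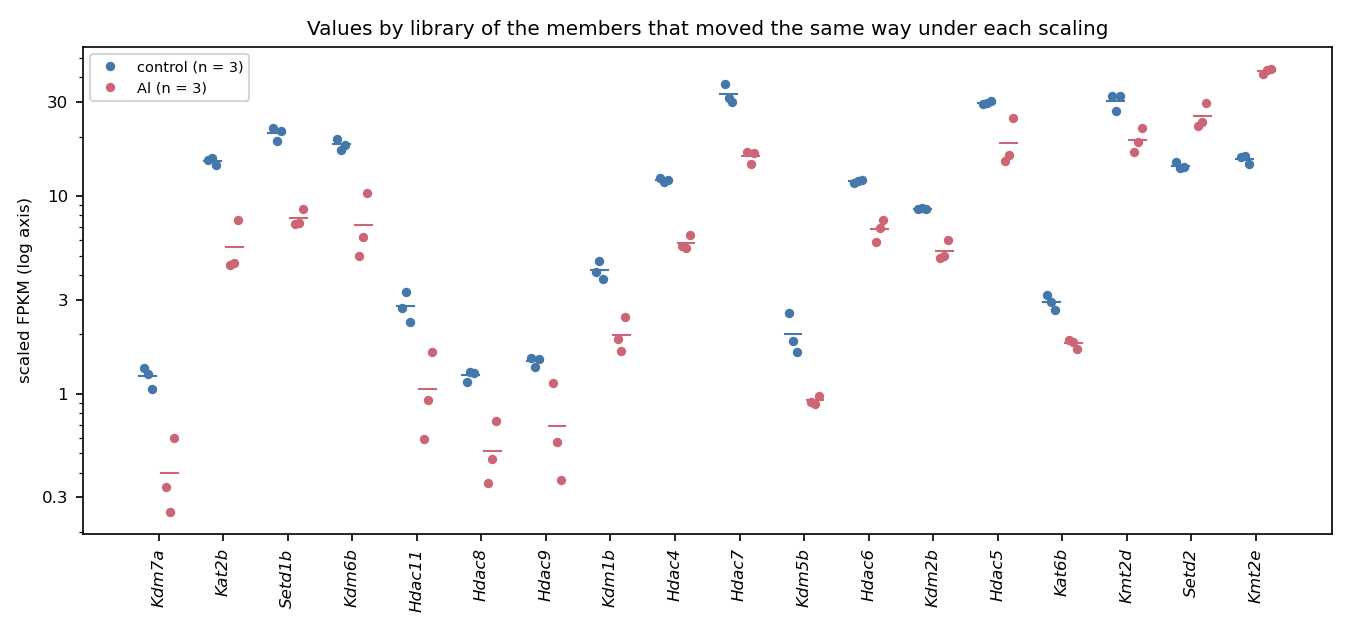
Scaled FPKM on a log axis in each control (n = 3) and Al (n = 3) library for the 18 members whose adjusted P was under 0.05, whose absolute log2 fold change was over 0.58, whose groups did not overlap and whose direction was the same with FPKM as deposited, TPM and quantile normalization. Bars mark group means. Of these, 16 lie below control in every Al library, and Setd2 and Kmt2e lie above. The direction rule left out 7 of the 9 members called higher, which were below 0 with TPM, where the median of all genes shifts by −0.75. It left out none of the members called lower, so the split follows partly from the rule.

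Among the methyltransferases, 3 of 14 were higher and 2 were lower, beside 26.2% and 24.4% of all genes (1 and 5 with FPKM as deposited, beside 14.0% and 42.0%), and the median log2 fold change was 0.14. Kmt2e, a relative of the lysine 4 methyltransferases with a SET domain that lacks known methyltransferase activity, had the largest increase of all members. It measured 15.8, 16.0 and 14.6 scaled FPKM in control and 41.4, 43.6 and 44.0 in Al libraries. The Al libraries lay close together and far above the controls, and Kmt2e rose by 1.47 ± 0.09 on the log2 scale (limma, adjusted P = 9.03e-06), the single increase among members that was also called with FPKM as deposited and TPM. Setd1b, the catalytic subunit of a COMPASS complex, had 22.2, 19.1 and 21.5 in control and 7.28, 7.34 and 8.59 in Al libraries. It fell by 1.42 ± 0.11 (adjusted P = 2.22e-05), with no overlap. Its close relative Setd1a measured 15.3 ± 1.18 and 21.8 ± 2.63 (SD, n = 3) and was not called, at 0.51 ± 0.12. With the length and GC trend removed Setd1a was called higher (0.75), and with FPKM as deposited it was at 0.02.

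Kmt2d, the enhancer methyltransferase mutated in Kabuki syndrome, had 32.2, 26.9 and 32.3 scaled FPKM in control and 16.8, 18.8 and 22.3 in Al libraries. All Al libraries lay below the controls, and it fell by 0.66 ± 0.13 (adjusted P = 0.00224) or by 0.56 without Al replicate 1, which is under the fold threshold. With the trend of length and GC content removed it was at −0.18 and not called. Kmt2b, which acts at promoters, measured 11.7 ± 0.609 and 18.1 ± 2.53 (SD, n = 3) and rose by 0.62 ± 0.12 (adjusted P = 0.00202), a call lost without Al replicate 3 (0.51) and with FPKM as deposited (0.13), and at −0.16 with TPM. Kmt2a and Kmt2c, at 0.51 and 0.03, were not called. Kmt2a was called higher with the length and GC trend removed (0.82) and without control replicate 1 (0.59), and was at 0.02 with FPKM as deposited. Setd2, the enzyme that trimethylates lysine 36 of histone H3 along transcribed genes, had 14.9, 13.9 and 14.0 in control and 22.8, 23.9 and 29.6 in Al libraries. Its groups did not overlap and it rose by 0.82 ± 0.12 (adjusted P = 0.000392), with 0.34 on FPKM as deposited, which is under the fold threshold. The other methyltransferases lay between −0.51 for the barely detected Setd4 and 0.47 for Setd5.

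Methyltransferases with other symbols had 4 of 20 tested genes higher and 4 lower, also beside 26.2% and 24.4% (2 and 7 with FPKM as deposited, beside 14.0% and 42.0%). Nsd1, which dimethylates lysine 36 of histone H3, had a log2 fold change of 2.14 ± 0.18, Prdm2 1.22, Ezh1 −0.98 and the meiotic Prdm9 −1.64, each with an adjusted P under 0.05 in limma. Ezh2, the main methyltransferase of Polycomb complex 2, was at 0.44 ± 0.09 and not called. Of its 9 tested partners Mtf2 was higher (1.23) and Suz12 lower (−0.66), against 1 and 3 with FPKM as deposited. Of 12 partners of COMPASS complexes Wdr82, which joins the Setd1 enzymes, was higher (0.77), and Pagr1a (−0.97), which joins Kmt2c and Kmt2d, and Dpy30 (−0.64) were lower. With FPKM as deposited Ezh2 was at −0.05 and Wdr82 at 0.29, neither called, and of the COMPASS partners none was then higher and 7 were lower.

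The JmjC demethylases had 3 of 14 tested genes higher and 4 lower, beside 26.2% and 24.4% of all genes, with a median log2 fold change of −0.31. On the deposited FPKM none was higher and 8 were lower, beside 14.0% and 42.0%. Kdm6b, which removes methyl groups from lysine 27 of histone H3 and is induced by many stress and inflammatory signals, had 19.5, 17.3 and 18.2 scaled FPKM in control and 4.98, 6.20 and 10.4 in Al libraries. Al replicate 3 was the highest of the Al libraries but stayed below every control, and Kdm6b fell by 1.40 ± 0.23 (limma, adjusted P = 0.000911), or by 1.70 without that library. Its X-linked relative Kdm6a, with the same substrate, measured 6.97 ± 0.323 and 11.9 ± 1.23 (SD, n = 3) and rose by 0.76 ± 0.11 (adjusted P = 0.000527). With FPKM as deposited Kdm6a was at 0.28, under the fold threshold, and with TPM at −0.02.

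Kdm7a, a demethylase of lysines 9 and 27 of histone H3 with a PHD finger, was low, with 1.35, 1.27 and 1.06 scaled FPKM in control and 0.339, 0.254 and 0.598 in Al libraries. The groups did not overlap, the Al libraries held 69, 43 and 112 reads, and the gene fell by 1.47 ± 0.30 (adjusted P = 0.00256). Kdm5b, a demethylase of lysine 4, had 2.57, 1.85 and 1.63 in control and 0.908, 0.889 and 0.981 in Al libraries. The Al libraries were alike while the controls were spread, and Kdm5b fell by 1.02 ± 0.21 (adjusted P = 0.0032). Kdm2b, which recruits a variant Polycomb complex 1 to unmethylated CpG islands, had 8.66, 8.69 and 8.63 in control and 4.85, 4.99 and 6.02 in Al libraries. Its groups did not overlap, and it fell by 0.71 ± 0.12 (adjusted P = 0.00111), a call lost after quantile normalization (−0.52) and with the length and GC trend removed (−0.50).

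Kdm3a, a demethylase of lysine 9, measured 12.4 ± 1.43 in control and 21.1 ± 8.26 in Al libraries (SD, n = 3) and rose by 0.69 ± 0.24 (adjusted P = 0.0308). The size of this rise rested on Al replicate 3, at 30.4 against 14.6 and 18.3 in the others, and without it the log2 fold change was 0.40 and not called. Without control replicate 2 it was 0.62 with an unadjusted limma P of 0.0573, also not called. Kdm8, a JmjC protein with peptidase and hydroxylase roles, rose by 0.65 ± 0.17 from 1.33 ± 0.0257 to 2.15 ± 0.247, and was at 0.57 without Al replicate 2, under the fold threshold. Neither Kdm3a nor Kdm8 passed the fold threshold with FPKM as deposited (0.21 and 0.19), and both were at −0.09 with TPM. Kdm2a and Kdm4b overlapped between the groups and also turned on Al replicate 3, with log2 fold changes of 0.05 and −0.28 over all libraries and −0.11 and −0.57 without it. The remaining Kdm3, Kdm4 and Kdm5 genes lay between −0.46 for Kdm3b and 0.37 for Kdm4c. Of these, Kdm3b was called lower without Al replicate 3 (−0.64) and Kdm5c after quantile normalization (−0.61).

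JmjC proteins with other symbols had 5 of 12 tested genes higher and 2 lower, beside 26.2% and 24.4% of all genes (3 and 4 with FPKM as deposited, beside 14.0% and 42.0%). Jmjd6, a lysyl hydroxylase of splicing factors, had a log2 fold change of 1.72 ± 0.15, Tyw5 1.36 and Jmjd4 1.28, and 2410016O06Rik, listed under an older symbol of Riox1, 1.12. The histone demethylases Phf2 and Phf8, the nearest relatives of Kdm7a, were at −0.95 ± 0.13 and −0.82 ± 0.13 and were both called lower. All 3 genes of the Kdm7 family were thus lower.

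The LSD1 group held 1 gene called higher and 1 called lower. Kdm1a, the flavin demethylase of CoREST and NuRD complexes, measured 24.2 ± 1.35 scaled FPKM in control and 41.5 ± 1.76 in Al libraries (SD, n = 3) and rose by 0.77 ± 0.09 (limma, adjusted P = 0.000147), but was at 0.29 with FPKM as deposited, −0.01 with TPM and 0.53 after quantile normalization, none of them called. Kdm1b, which demethylates lysine 4 in the growing oocyte and within gene bodies, had 4.16, 4.73 and 3.83 in control and 1.89, 1.64 and 2.46 in Al libraries. Its groups did not overlap, and it fell by 1.06 ± 0.18 (adjusted P = 0.0011).

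The partner proteins of the LSD1 group had 7 of 8 tested genes lower, beside 24.4% of all genes, and none higher (none above control at an unadjusted limma P under 0.05, and none called higher with voom), with a median log2 fold change of −0.90 against 0.03 over all genes. Rcor2, a CoREST subunit of neural progenitors and stem cells, had 23.9, 25.0 and 21.5 scaled FPKM in control and 5.20, 4.64 and 8.10 in Al libraries, and fell by 1.99 ± 0.19 (adjusted P = 5.28e-05). Rcor1, the founding CoREST subunit that stabilizes Kdm1a, had 14.3, 13.2 and 14.5 in control and 7.13, 7.29 and 9.75 in Al libraries and fell by 0.80 ± 0.14 (adjusted P = 0.00108). Both genes were below control in every Al library. Phf21a, the reader of unmethylated lysine 4, was at −1.13, Zmym3 at −1.01 and the HMG-box subunit Hmg20b at −1.01. Glyr1, the partner of Kdm1b, was at 0.26 ± 0.13 and not called. With FPKM as deposited the count was also 7 lower and none higher, beside 42.0% of all genes lower. No set test was made on this list, and its genes partly share complexes.

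**Figure D3:**
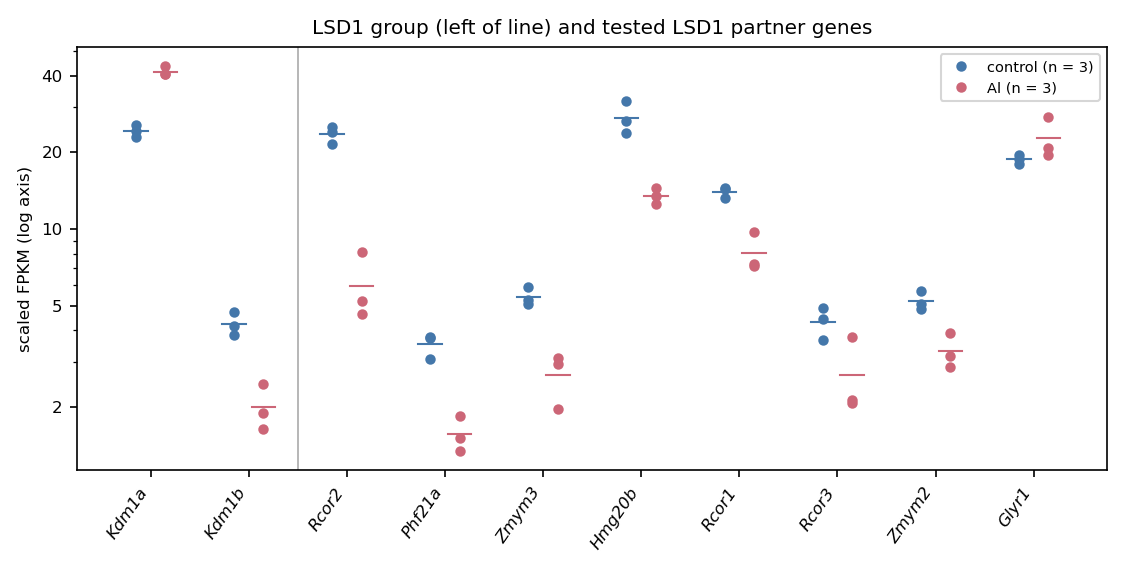
Scaled FPKM on a log axis in each control (n = 3) and Al (n = 3) library for Kdm1a and Kdm1b, left of the line, and for the 8 tested partner genes, with bars at the group means. Kdm1a is above control in all 3 Al libraries on this scale (−0.01 on the log2 scale with TPM), while Kdm1b and 7 of the 8 partners were called lower.

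The acetyltransferases had 2 of 7 genes higher and 2 lower, beside 26.2% and 24.4% of all genes, and 3 not called, while with FPKM as deposited none was higher and 4 were lower, beside 14.0% and 42.0%. Kat2b, the PCAF subunit of SAGA-type complexes, had 15.3, 15.7 and 14.3 scaled FPKM in control and 4.50, 4.58 and 7.62 in Al libraries. Al replicate 3 was above the other Al libraries and below the controls, and Kat2b fell by 1.47 ± 0.19 (limma, adjusted P = 0.000262), the largest decrease in its class. Its relative Kat2a measured 29.6 ± 2.10 and 24.4 ± 3.13 (SD, n = 3) and was not called (−0.28 ± 0.12). Kat6b, a MYST-family enzyme mutated in intellectual disability syndromes, had 3.18, 2.93 and 2.66 in control and 1.87, 1.84 and 1.69 in Al libraries. It fell by 0.67 ± 0.16 (adjusted P = 0.0054), with no overlap, and was not called after quantile normalization (−0.34), with the length and GC trend removed (−0.39) or with a pseudocount of 1 (−0.48). Kat6a, the other enzyme of that pair, rose by 0.75 ± 0.10 from 15.5 ± 0.630 to 26.1 ± 2.01, and Kat7, which acetylates histones at replication origins, by 0.69 ± 0.09 from 20.4 ± 1.05 to 33.1 ± 1.19, with 0.26 and 0.21 on FPKM as deposited and −0.04 and −0.09 with TPM, where neither was called. Kat5 and Kat8 were at 0.21 and −0.50, and Kat8 passed the fold threshold as lower without Al replicate 3 (−0.62) or without control replicate 2 (−0.64). Kat8 was also called lower with the length and GC trend removed (−0.62), with FPKM as deposited (−0.98) and with TPM (−1.27).

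The same shares of all genes apply to the related lists that follow. Of acetyltransferases with other symbols 2 of 10 were higher and 2 lower (1 and 4 with FPKM as deposited), among them Gtf3c4 at 1.65 ± 0.10 and Naa60 at −1.11 ± 0.12. The coactivators Ep300 (0.16 ± 0.10) and Crebbp (0.24 ± 0.11) were not called. Of 40 subunits of acetyltransferase complexes, 9 were higher and 8 lower (6 and 17 with FPKM as deposited), led by Brd8 (1.44), Epc1 (1.42), Kansl2 (1.36) and Jade2 (−1.57). Deacetylase complexes had 2 of 30 subunits higher and 5 lower (1 and 15 with FPKM as deposited). Tbl1xr1, an NCoR subunit, was at −2.17 ± 0.21 and Mta1 of NuRD at −1.33 ± 0.11. The scaffolds Sin3a and Sin3b moved apart, at −0.98 ± 0.14 and 0.98 ± 0.10, although with FPKM as deposited Sin3b was at 0.50 and not called.

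Ratios between close relatives inside 1 library do not depend on a scaling factor applied to the whole library, although they move with quantile normalization and with removal of the length and GC trend, and 36 such ratios in 13 families were compared. Groups did not overlap in 27 of them (75.0%, beside 68.1% of all genes for the levels of single genes), and ratios of other gene pairs were not computed. On the log2 scale 14 shifted by more than 1, all without overlap, and 6 of these 14 came under 1 in at least 1 alternative setting. The ratios are not separate observations, because several of the 14 share Hdac8, Kmt2d or Kmt2e and repeat changes of single genes given above. With 3 against 3 libraries the exact permutation test cannot give a p under 0.1 (two-sided), which is 0.133 after Benjamini-Hochberg adjustment over the 36 ratios, so none passes 0.05. Kdm6a stood to Kdm6b as 0.366, 0.417 and 0.363 in control and 2.20, 1.85 and 1.28 in Al libraries, a log2 shift of 2.19. Kdm6b was thus the more abundant per length in every control library and Kdm6a in every Al library. Setd1a to Setd1b went from 0.703, 0.736 and 0.762 to 2.70, 2.88 and 2.88, a shift of 1.94, and this order also turned over. Kmt2d to Kmt2e went from 2.03, 1.68 and 2.22 to 0.406, 0.432 and 0.506, a shift of −2.14, again with a change of order.

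Kdm1a was already the more abundant of its pair and became more so, with a ratio to Kdm1b of 6.14, 5.15 and 5.96 in control and 21.4, 26.5 and 16.5 in Al libraries (shift 1.88). The ratio of Kat6a to Kat6b went from 5.07, 5.08 and 5.80 to 12.9, 14.1 and 16.6 (shift 1.45). Kdm5a to Kdm5b shifted by 1.44, Kat2a to Kat2b by 1.20 and Kdm3a to Kdm3b by 1.16. In 9 of the 36 ratios the groups overlapped. Hdac4 stood to Hdac7 as 0.334, 0.376 and 0.402 in control and 0.335, 0.376 and 0.383 in Al libraries, a shift of −0.02. Hdac1 to Hdac2 shifted by −0.10 and Kmt2a to Kmt2b by −0.11, with overlapping groups. Ratios that involve Hdac9 spread widely among Al libraries, for Hdac4 to Hdac9 over 4.92, 9.69 and 17.3.

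**Figure D4:**
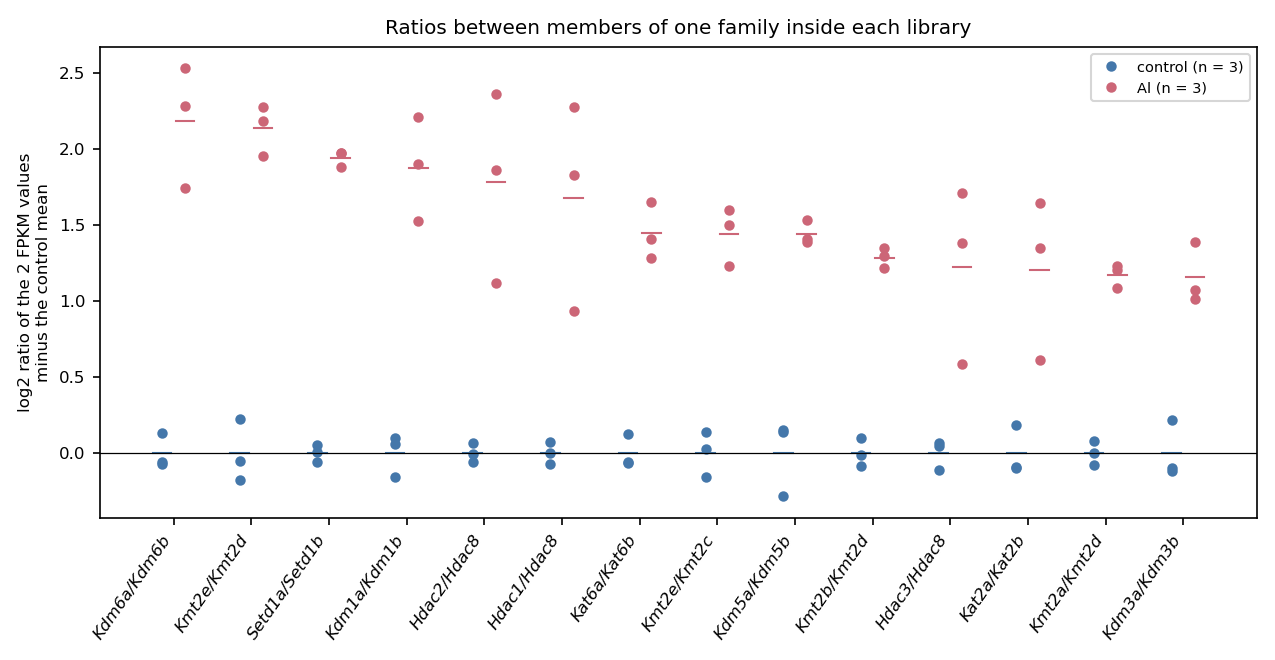
Log2 ratio of 2 members of a family inside each library, minus the mean of the control libraries, for the 14 ratios that shifted by more than 1, each oriented so that the shift is upward. Points are libraries (3 control, 3 Al) and bars are group means. Every Al point lies above every control point, and Al replicates are most spread for ratios over Hdac8.

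FPKM as deposited and TPM shift the median of all genes by −0.46 and −0.75, which by itself takes increases near the threshold under it and leaves decreases past it. All 16 members called lower were also called lower with FPKM as deposited and with TPM, where 30 members in all were lower and 1 higher on the TPM scale beside 53.1% and 9.31% of all genes, whereas 8 of the 9 called higher were not called on either scale, Kmt2e being the exception. Quantile normalization gave 6 members higher and 16 lower, against 22.2% and 24.2% of all genes. Kat6b (−0.34), Kat7 (0.50), Kdm1a (0.53), Kdm2b (−0.52) and Kmt2b (0.58, just under the threshold) were no longer called. Kdm5c (−0.61) and Kmt5a (−0.58, just past the threshold) were newly called lower, beside 14 kept from the main fit. Removing the trend of fold change with transcript length and GC content gave 12 higher and 12 lower (26.0% and 23.7% of 12660 genes). Hdac5 (−0.43), Hdac9 (−0.82, at an unadjusted P over 0.05), Kat6b (−0.39), Kdm2b (−0.50) and Kmt2d (−0.18) were then no longer called. Newly called were Kmt2a (0.82), Setd1a (0.75) and Setd5 (0.70) as higher and Kat8 (−0.62) as lower. Members are long, with a median length of 6857 bases against 3288 over tested genes, and across 10246 genes the log2 fold change had a Pearson r of −0.15 with log2 length and −0.02 with GC content. Over the 48 tested members these were −0.12 and −0.25. The points share libraries and depth. Hdac4, Hdac6, Hdac7, Hdac11, Kat2b, Kdm1b, Kdm5b, Kdm6b, Kmt2e and Setd1b kept their call in each of the 17 alternative settings in which only scaling, filter, model, pseudocount or the set of libraries was changed.

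**Figure D5:**
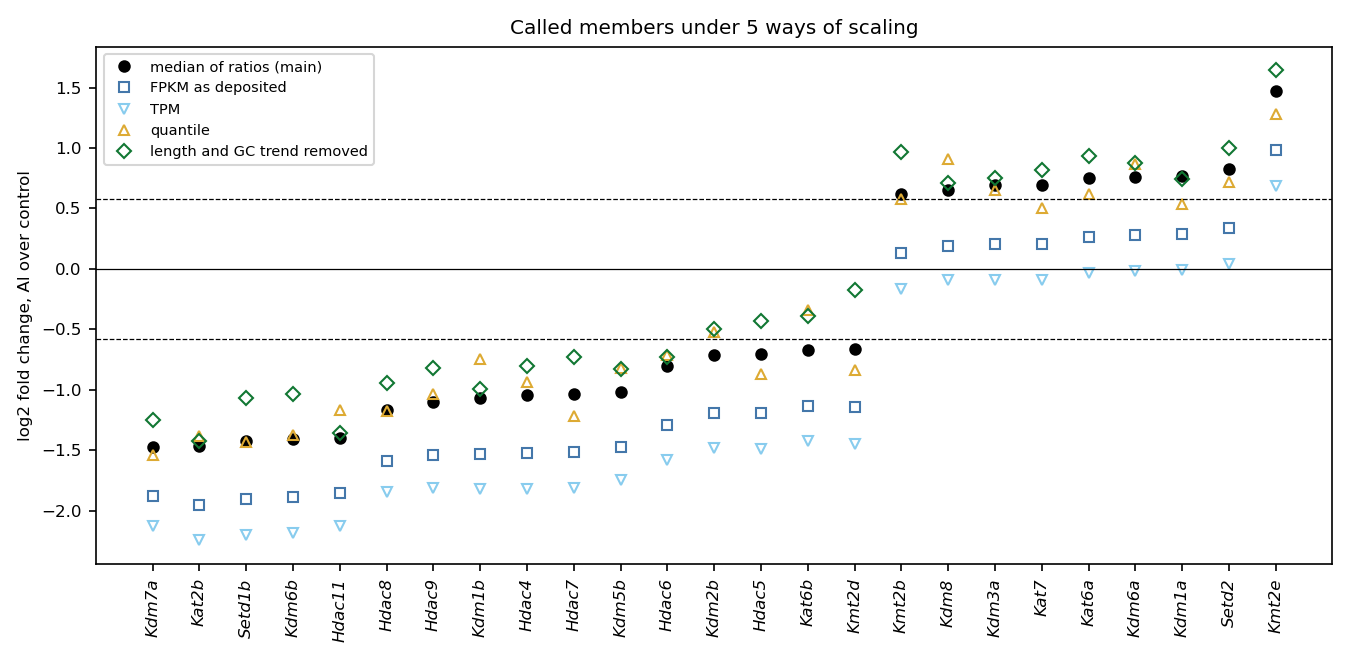
Log2 fold change of the 25 called members under 5 ways of scaling (median of ratios, FPKM as deposited, TPM, quantile normalization, and removal of the length and GC trend), with dashed lines at the threshold of 0.58. FPKM as deposited and TPM shift the median of all genes by −0.46 and −0.75, and with them all members lie lower, so that 8 of the 9 higher members are under the upper line and the 16 lower members stay below 0.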

How the data were processed

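The study measured RNA in 6 input libraries of HT22 cells, and the deposited table gives 1 FPKM value per symbol and library. According to the paper's methods the authors trimmed with Trimmomatic, removed ribosomal reads with SortMeRNA and aligned with HISAT2 to GRCm38, whereas the submitters' processing notes name fastp, HISAT2, HTSeq and GRCm39, and the series' design text names BosGru3.0. The sources also differ on the sequencer. The kit keeps strand, and the strand setting of the counting is not given in the sources used here.

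The FPKM values carry enough digits to recover whole reads, library totals and lengths. A whole-number solution was found for 17688 of 17688 symbols above 0, with reads taken as whole within 0.0001. Lengths were whole within 0.02 base in 99.99%. Such a solution need not be the exact reads of every symbol. Genes on the table took 99.59% to 99.64% of each total. Because the unit is FPKM, the study's count test was replaced by limma 3.58.1 in R 4.3.3 (lmFit and eBayes with trend, two-sided) on log2(scaled FPKM + 0.1), where the scaling divided each library by the median of its ratios to the mean library. Genes whose FPKM averaged 0.1 or more entered, 12889 in all. The fold changes are on that scale, which understates those of low genes. Calls used the thresholds of the study, P under 0.05 before adjustment together with a log2 fold change beyond 0.58 in either direction, and adjusted P values (Benjamini-Hochberg) ran over all tested genes. P values measure the spread between these cultures of 1 line. The read recovery and the limma test were tried on simulated data. Ratios inside a library used an exact permutation test.

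Values by library are given for members with an adjusted P under 0.05, an absolute log2 fold change over 0.58, no overlap and 1 direction under deposited FPKM, TPM and quantile normalization. Of related lists, up to 4 called genes with the largest fold changes are named, with Ezh2, Ep300, Crebbp, Rcor1 and Sin3a. Other genes named from those lists, and the ratios inside families, were chosen after their values were seen. Members and lists were chosen with earlier results of these data known. Alternatives were other scalings, pseudocounts, filters, models, a replicate block, voom on recovered reads, a length and GC trend, and leaving out each library. The immunoprecipitated libraries were not analysed here. A gene of the list of LSD1 partners is not reported here and is left out of its counts, for a reason unrelated to its values.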

Additional observations from a re-analysis of the deposited data

How the results depend on the processing

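With FPKM as deposited, 1 member was higher and 27 lower (all genes 1805 and 5417), with TPM 1 and 30 (1200 and 6843), and with a fold threshold of 1 on the log2 scale 1 and 11 (2065 and 1816). By class, methyltransferases had 1 higher and 5 lower as deposited, 1 and 7 with TPM, 6 and 1 after removal of the length and GC trend, and 1 and 1 at the higher threshold. JmjC demethylases had 0 higher and 8 lower as deposited, 0 and 9 with TPM, and 0 higher at the higher threshold. Deacetylases had none higher, and 9 lower as deposited and with TPM, 6 with the filter raised to a mean FPKM of 1, and 5 after removal of the length and GC trend, with a pseudocount of 1 and at the higher threshold. The LSD1 group had 0 higher as deposited, with TPM, with quantile normalization and at the higher threshold. Acetyltransferases had 0 higher and 4 lower both as deposited and with TPM, 1 higher and 1 lower after quantile normalization, 1 lower with a pseudocount of 1, and 0 higher and 1 lower at the higher threshold. Each of these lists is shifted downward where the median of all genes shifts (by −0.46 as deposited and −0.75 with TPM).

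Leaving out 1 library at a time gave 7 to 10 members higher and 14 to 18 lower, and 3239 to 3467 and 2925 to 3337 of all genes. The ranges were 2 to 4 higher and 1 to 2 lower for methyltransferases (1 without Al replicate 1, which loses Kmt2d), 2 to 3 and 4 to 5 for JmjC demethylases, 6 to 7 lower for deacetylases, and 2 to 3 lower for acetyltransferases.

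The sign of the following members turned, among them 7 of the 9 called higher, which were below 0 with TPM. As deposited, the log2 fold changes were −0.14 for Hdac1, −0.037 for Hdac2, −0.28 for Kat5, −0.44 for Kdm2a, −0.12 for Kdm4c, −0.14 for Kdm5a, −0.45 for Kmt2c, −0.24 for Setd3 and −0.013 for Setd5. With TPM they were −0.44 for Hdac1, −0.34 for Hdac2, −0.57 for Kat5, −0.035 for Kat6a, −0.090 for Kat7, −0.012 for Kdm1a, −0.74 for Kdm2a, −0.088 for Kdm3a, −0.41 for Kdm4c, −0.44 for Kdm5a, −0.019 for Kdm6a, −0.091 for Kdm8, −0.27 for Kmt2a, −0.16 for Kmt2b, −0.74 for Kmt2c, −0.28 for Setd1a, −0.54 for Setd3 and −0.31 for Setd5. Quantile normalization gave −0.065 for Hdac1, 0.045 for Hdac10 and −0.13 for Kdm2a. Leaving out 1 library turned Hdac10 (range −0.37 to 0.064, above 0 without Al replicate 2), Kdm2a (−0.11 to 0.19, below 0 without Al replicate 3) and Kmt2c (−0.089 to 0.14, below 0 without Al replicate 3, control replicate 2 or control replicate 3). Beyond the scalings, whose shift of all genes is given above, the cause was not tested.

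The replicate block changed no member's call (9 higher and 16 lower, and 3352 and 3123 of all genes). Same-numbered control and Al libraries correlated at −0.0766, −0.0599 and −0.112 in their deviations from the group means, so the numbers were not taken to pair the samples. Voom on recovered reads, eBayes without trend, no filter and a pseudocount of 0.01 also changed no call, and a pseudocount of 1 lost Hdac8, Hdac9, Kat6b and Kdm8. The shift of Kdm6a over Kdm6b ranged from 1.91 to 2.38, that of Setd1a over Setd1b from 1.81 to 1.96 and that of Kdm1a over Kdm1b from 1.28 to 2.01 over these alternatives, which were added for the ratios after seeing the data. Of the 14 ratios shifted by more than 1, 6 came under 1 in at least 1 alternative, with lowest values of 0.47 for Hdac3 over Hdac8, 0.90 for Kat2a over Kat2b, 0.91 for Hdac1 over Hdac8, 0.94 for Kdm5a over Kdm5b, 0.96 for Kat6a over Kat6b and just under 1 for Kmt2a over Kmt2d. Hdac11 and Hdac8 rested on 35 to 155 reads per Al library.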

Other observations

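Dioxygenases that share the iron and 2-oxoglutarate chemistry of the JmjC demethylases but act on other substrates had 8 of 24 tested genes higher and 3 lower, beside 26.2% and 24.4% of all genes (3 and 8 with FPKM as deposited, beside 14.0% and 42.0%), with a median log2 fold change of 0.30. Alkbh1, a demethylase of transfer RNA and DNA, measured 4.75, 3.44 and 3.37 scaled FPKM in control and 27.3, 23.1 and 24.6 in Al libraries, a log2 fold change of 2.68 ± 0.15 (limma, adjusted P = 6.69e-06). Alkbh4 was at 2.09 ± 0.14, the collagen lysyl hydroxylase Plod3 at 1.33 ± 0.12 and the prolyl hydroxylase Egln2 at −1.15 ± 0.12, each with an adjusted P under 0.05, and the 3 increases were also above control with FPKM as deposited (2.20, 1.61 and 0.84). Fto, the RNA demethylase the study centres on, was at −0.04 ± 0.11 (adjusted P = 0.767) and not called. This value is for RNA, whereas the decrease in the paper is of FTO protein, and the paper states that FTO mRNA was not systematically measured.

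Genes induced through HIF, which falls under prolyl hydroxylase control, had 4 of 13 tested higher and 2 lower, beside 26.2% and 24.4% of all genes (2 and 4 with FPKM as deposited, beside 14.0% and 42.0%). Pgk1 (1.34 ± 0.29) and Ldha (1.14 ± 0.27) were higher, and Adm (−2.24 ± 0.39) and Ndrg1 (−0.94 ± 0.22) lower. In the control group, replicate 3 was the highest for Pgk1 and Ldha, at 574 and 605 scaled FPKM against 319 to 340 in the other control libraries.

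A further 3 enzymes of these families stand in the table under older symbols that the naming rule does not take. Suv420h2, now Kmt5c, measured 7.51, 7.57 and 6.13 scaled FPKM in control and 2.72, 2.05 and 3.40 in Al libraries, a log2 fold change of −1.37 ± 0.19 (limma, adjusted P = 0.000375). Suv420h1, now Kmt5b, was at −0.42 ± 0.16 and Csrp2bp, now Kat14, at −0.37 ± 0.10, neither of them called.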
